A study of Mus musculus with 3 samples.

Results

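The 4 *Hox* clusters of the mouse encode transcription factors that set positional identity, and they also produce RNAs with no known protein, most of them read from the strand opposite to the coding genes. The 6 such genes described here were taken by symbol from 32285 genes counted in each library. *Hotairm1*, *Hoxaas2*, *Hoxaas3* and *Hoxa11os* belong to the *Hoxa* cluster, and *Hoxb3os* and *Hoxb5os* to the *Hoxb* cluster. They were set beside the 39 coding *Hox* genes and 13 other non-coding genes of the 4 clusters.

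Kidneys of mouse embryos at E15.5 were dissociated and profiled by droplet-based single-cell RNA-seq in 3 libraries, 1 per group. The *Enl*-T1 library came from *Enl* flox-T1/+ *Wt1* GFPCre/+ embryos and the *Enl*-WT library from *Enl* +/+ *Wt1* GFPCre/+ embryos, both untreated. The third, *Enl*-T1 TDI-11055, came from *Enl*-T1 embryos whose mothers were dosed daily with 100 mg/kg of TDI-11055, an inhibitor of the histone-binding YEATS domain of ENL, from E10.5 to E14.5. In all 3 groups the Cre knock-in removes 1 copy of *Wt1* and acts in *Wt1*-expressing cells, which give rise to nephron and stroma but not to the ureteric epithelium. The embryos of a group were pooled, so no replicate library exists and no difference was tested. Every level is a sum of unique molecular identifiers (UMIs, each marking 1 captured RNA molecule) over the cells of a class, divided by all UMIs of that class in the library and given as CPM, the usual depth-scaled count. Ratios compare the CPM of 2 libraries, and the first ratio is *Enl*-T1 over *Enl*-WT and the second *Enl*-T1 TDI-11055 over *Enl*-T1. Intervals are exact 95% intervals for counting error only.

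The filters kept 5233 cells of the *Enl*-WT library, 4144 of *Enl*-T1 and 2754 of the treated one, at a median of 5090, 9391 and 16931.5 UMIs per cell. Between 5 and 8 kept barcodes were shared by any pair of libraries. *Six2*, *Pdgfra*, *Ret* and *Pecam1* were each highest in the class they define in all 3 libraries (nephron, stroma, ureteric epithelium and endothelium). The nephron progenitor class (NP1-like) held 708 cells of the *Enl*-WT library, 597 of *Enl*-T1 and 577 of the treated one. Ribosomal protein genes took 19.5% of its UMIs in the *Enl*-WT library, 31.0% in the *Enl*-T1 library and 30.2% in the *Enl*-T1 TDI-11055 library. *Neat1*, a nuclear non-coding RNA, was at 56.0, 22.9 and 14.6 CPM there. Among NP1-like cells given a sex, 36.2%, 79.5% and 44.4% were female. The part of these differences in the results below was not tested beyond the values given.

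ENL is a reader of acylated histones that recruits elongation factors to its targets, and *Hox* genes are among the best known of those. In the kidney, the paralogues *Hoxa11*, *Hoxc11* and *Hoxd11* are needed for the metanephric mesenchyme, from which the nephron arises. Antisense RNAs of *Hox* clusters often overlap or share control regions with their coding neighbours, and their counts can move with these or apart from them. *Hotairm1* and *Hoxa11os* are the best known of the 6. The human counterpart of *Hotairm1* was described in myeloid cells, and *Hoxa11os* (also *Hoxa11as*) in the limb and uterus.

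The libraries read the 3′ ends of polyadenylated RNA, so what is counted for a gene depends on its annotated 3′ end. In the GENCODE M21 annotation of the same mouse assembly (mm10), no exon of the 6 genes overlapped an exon of a coding *Hox* gene on its own strand. On the opposite strand, the overlap with the coding genes named here was 14.4% of the exonic bases of *Hoxb5os* (with *Hoxb5*), 15.0% of *Hoxaas2* (*Hoxa3*), 26.0% of *Hoxa11os* (*Hoxa11*), 30.6% of *Hoxaas3* (*Hoxa3* and *Hoxa7*) and 76.2% of *Hoxb3os* (*Hoxb2* and *Hoxb3*). The hexamer AATAAA, the common signal for polyadenylation, was searched on the transcript strand in the last 80 bases of each annotated transcript. It was present in 10 of the 19 transcripts of the 6 genes. Of those 10, 4 are transcripts of *Hoxa11os* that end close together and share the same hexamer site. The share was 28.0% over all 140371 mouse transcripts, 41.8% over protein-coding and 18.1% over other transcripts. For 4 genes a transcript with the hexamer ended outside any exon of a coding gene. Those ends are shown because no annotated coding exon lies there on either strand. Which annotated end was used in these libraries cannot be seen from counts per gene. The *Hotairm1* end overlaps the annotated small RNA *Gm27868* on its own strand. The 4 ends lie in the last exon, in the order chr6:52162040-52162119 (+), chr6:52192941-52193020 (+), chr6:52249712-52249791 (+) and chr11:96291024-96291103 (−). Capitals mark the hexamer, whose match nearest the end starts 73, 25, 22 and 26 bases from it, in that order.
Hotairm1-202: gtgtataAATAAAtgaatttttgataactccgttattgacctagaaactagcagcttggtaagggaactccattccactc
Hoxaas3-203: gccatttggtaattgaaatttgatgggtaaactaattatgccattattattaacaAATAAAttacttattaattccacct
Hoxa11os-206: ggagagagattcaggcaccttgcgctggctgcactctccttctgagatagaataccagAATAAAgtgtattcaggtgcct
Hoxb5os-202: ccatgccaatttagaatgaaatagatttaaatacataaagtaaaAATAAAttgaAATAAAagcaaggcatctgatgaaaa

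The nearest coding exon lay 298 bases from the end of *Hotairm1*-202 (*Hoxa2*), 1188 bases from *Hoxaas3*-203 (*Hoxa4*), 3902 bases from *Hoxa11os*-206 (*Hoxa11*) and 862 bases from *Hoxb5os*-202 (*Hoxb7*). Every annotated transcript of *Hoxaas2* that held the hexamer ended over a *Hoxa3* exon on the opposite strand, and that of *Hoxb3os* over a *Hoxb3* exon. The counting's strand setting is not given in the sources used here. As a measured check, *Tsix*, which is read antisense to *Xist*, had 9.86, 9.59 and 6.02 UMIs per 100 *Xist* UMIs in female cells of the libraries, in the order wild type, mutant and treated mutant, which every later set of 3 values keeps. In male cells *Tsix* had 0.70, 1.32 and 0.61 UMIs per 100 cells. In NP1-like cells *Hoxaas2* was at 3.6 to 14.9 UMIs per 100 of *Hoxa3*, *Hoxaas3* at 6.4 to 22.0 per 100 of *Hoxa7* and *Hoxb3os* at 11.9 to 18.6 per 100 of *Hoxb2*. These shares run from below the *Tsix* share to above it. *Hoxa11os* was at 122 to 196 per 100 of *Hoxa11* and *Hoxb5os* at 33.2 to 280 per 100 of *Hoxb5*. The strand setting is not given, and *Hoxaas2*, *Hoxaas3* and *Hoxb3os* are a small share of the gene they overlap, so their counts are the less certain.

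The 6 transcripts differed in where they were counted. *Hoxa11os* and *Hoxb5os* were abundant in the nephron, *Hoxa11os* also in the stroma, and *Hotairm1* was the highest of the 6 in endothelial-like cells of every library. In the *Enl*-WT library, *Hoxa11os* ranged from 1.19 CPM (0.44 to 2.59) in ureteric tip-like cells to 66.9 CPM (39.7 to 106) in medullary stroma-like cells over 16 classes of at least 50 cells. Its order along the nephron was NP1-like at 64.7 CPM (57.2 to 73.0), NP2-like at 45.0 (36.7 to 54.6), distal tubule/loop of Henle-like at 31.4 (25.7 to 37.9), proximal tubule-like at 11.7 (7.02 to 18.2) and podocyte-like at 10.2 (5.93 to 16.3). The intervals of the last 2 overlapped, and the others stood apart from their neighbours except NP2-like and distal tubule/loop of Henle-like, whose intervals met between 36.7 and 37.9 CPM. In the *Enl*-T1 library that order was not seen. The level was 172 CPM (163 to 182) in NP1-like, 178 (163 to 195) in NP2-like and 188 (165 to 213) in distal tubule/loop of Henle-like cells, with overlapping intervals.

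**Figure D1:**
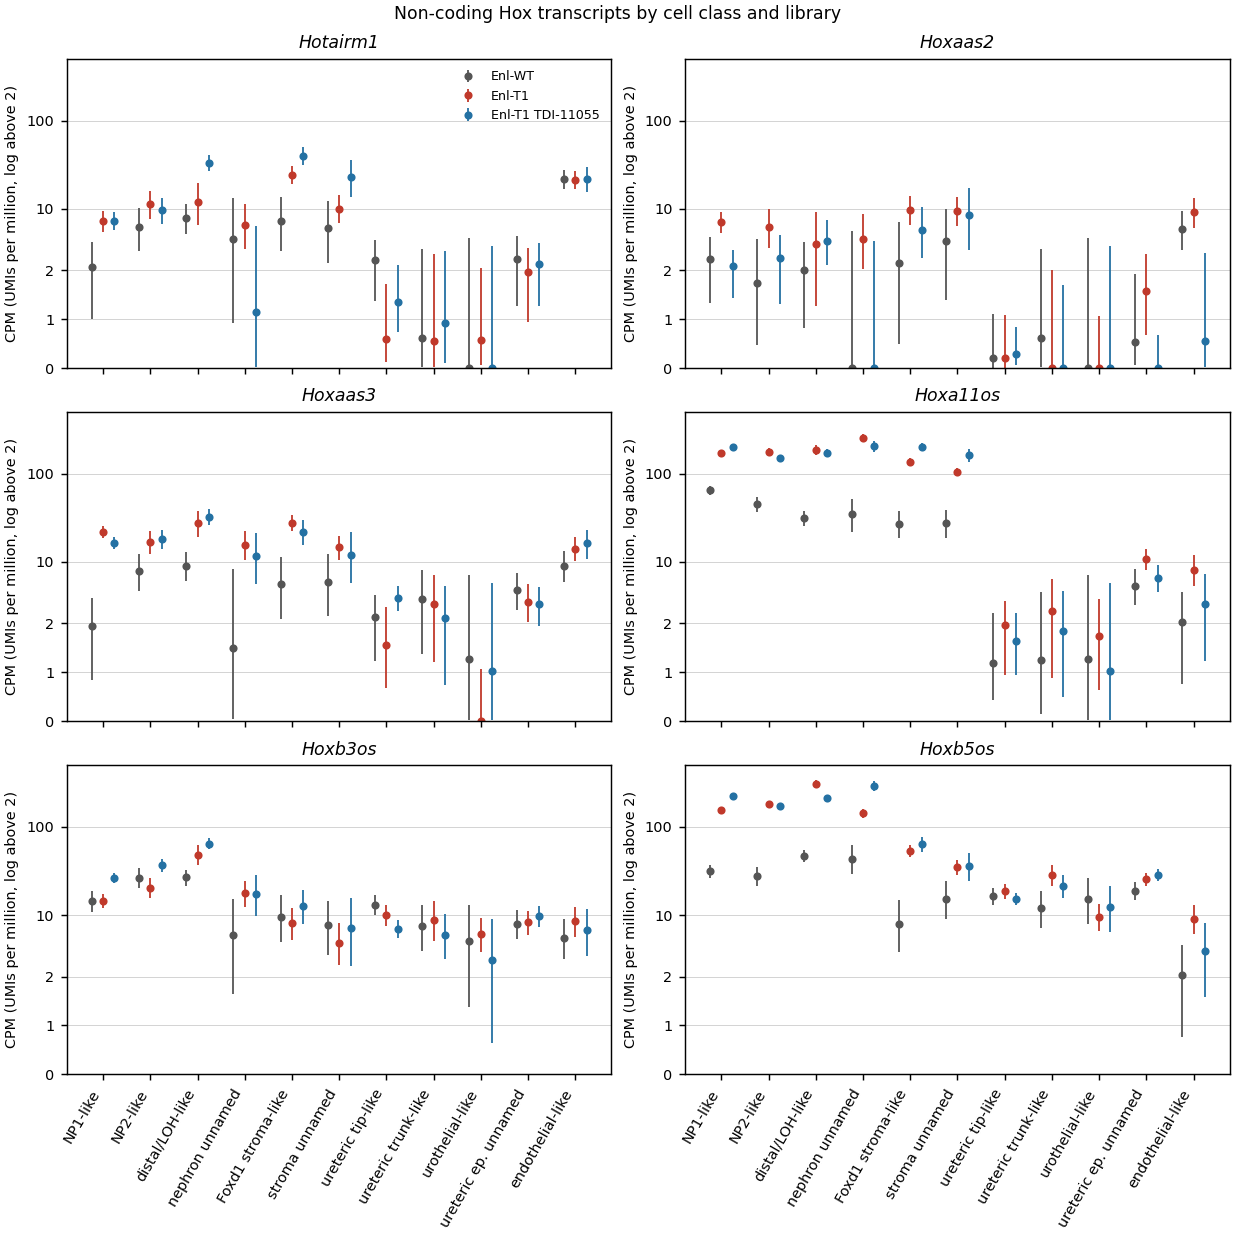
Level of each non-coding transcript (CPM, linear below 2 and log above) in the 11 classes with at least 50 cells in all 3 libraries, with *Enl*-WT in grey, *Enl*-T1 in red, *Enl*-T1 TDI-11055 in blue and bars for exact 95% Poisson intervals. *Hoxa11os* in NP1-like cells was at 64.7, 172 and 201 CPM and *Hoxb5os* at 31.4, 157 and 227 CPM, while both stayed under 30 CPM in the ureteric classes.

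*Hoxb5os*, read antisense across *Hoxb5* and *Hoxb6*, was much higher in *Enl*-T1 progenitors while the coding genes it spans differed little. In NP1-like cells it was counted 129 times in the *Enl*-WT library, 1208 times in the *Enl*-T1 library and 2324 times in the *Enl*-T1 TDI-11055 library. The levels were 31.4 CPM (26.2 to 37.3), 157 CPM (148 to 166) and 227 CPM (218 to 236), with no overlap of the intervals. The ratio of *Enl*-T1 to *Enl*-WT was 5.01 (4.17 to 6.05). Over the same 2 libraries *Hoxb5* had a ratio of 1.07 (0.95 to 1.21), *Hoxb6* 1.28 (1.11 to 1.49), *Hoxb4* 1.04 (0.94 to 1.14) and *Hoxb7* 1.47 (1.25 to 1.74). For every 100 *Hoxb5* UMIs there were 33.2 *Hoxb5os* UMIs in the *Enl*-WT library, 155 in the *Enl*-T1 library and 280 in the *Enl*-T1 TDI-11055 library. These are molecules, which 3′ counting does not scale by length. The UMI ratio to each of the 4 neighbours was between 3.40 and 4.83 times higher in the *Enl*-T1 than in the *Enl*-WT library, and all 4 intervals lay above 1. Such a change of ratio is the same under every scaling of the totals.

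*Hoxb5os* was not confined to progenitors. It was at 27.5, 182 and 172 CPM in NP2-like cells and at 47.3, 306 and 211 CPM in distal tubule/loop of Henle-like cells. In podocyte-like cells 3 UMIs were found in 221 *Enl*-WT cells (1.80 CPM, 0.37 to 5.25) and 88 UMIs in 40 *Enl*-T1 cells (292 CPM, 235 to 360), a class that fell under 50 cells in that library. Of 14 classes with at least 50 cells in both libraries, the interval of the *Enl*-T1 to *Enl*-WT ratio lay above 1 in 10, below 1 in 0 and held 1 in 4. The most distant values were 0.63 in urothelial-like and 6.66 in Foxd1 stroma-like cells. In NP1-like cells called female the ratio was 7.79 (5.07 to 12.7), and in those called male 4.61 (3.5 to 6.14). Cluster by cluster, the 4 clusters that make up the NP1-like class gave ratios between 3.19 and 6.97. 3 of those clusters were led by cell cycle genes. The other, with the progenitor markers *Cited1* and *Rspo3* among its leading genes, gave 3.61 (2.56 to 5.18). It held 309 of the 708 *Enl*-WT and 150 of the 597 *Enl*-T1 NP1-like cells.

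*Hoxa11os*, read antisense to *Hoxa11*, was higher in mutant than in wild-type progenitors together with its coding partner, and by more. It had 266, 1322 and 2054 UMIs in NP1-like cells, at 64.7 CPM (57.2 to 73.0), 172 CPM (163 to 182) and 201 CPM (192 to 210) in the 3 libraries. The first ratio was 2.66 (2.33 to 3.04), beside 1.65 (1.41 to 1.93) for *Hoxa11* and 1.51 (1.39 to 1.65) for *Hoxa10*. There were 122, 196 and 186 *Hoxa11os* UMIs per 100 *Hoxa11* UMIs. That ratio was 1.61 times higher (1.31 to 1.98) in the *Enl*-T1 than in the *Enl*-WT library, and 0.95 times (0.84 to 1.07) in the *Enl*-T1 TDI-11055 against the *Enl*-T1 library. *Hoxa13*, the next coding gene on the other side, had 0 UMIs in *Enl*-WT NP1-like cells and 3.0 CPM in *Enl*-T1. In the whole nephron lineage the *Enl*-T1 to *Enl*-WT ratio of *Hoxa11os* was 4.89 (4.45 to 5.37). That lineage held other shares of its classes in the *Enl*-WT and *Enl*-T1 libraries. It had 560 and 103 distal tubule/loop of Henle-like cells and 109 and 264 unnamed cells. The part of this in the lineage ratio was not tested. Female and male NP1-like cells gave 2.75 (2.14 to 3.60) and 2.87 (2.30 to 3.58).

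*Hoxaas3*, an antisense gene whose span runs from within *Hoxa3* to within *Hoxa7*, had the highest *Enl*-T1 to *Enl*-WT ratio of the 6 in NP1-like cells from a low base. It was counted 8, 169 and 167 times, at 1.95 CPM (0.84 to 3.84), 22.0 CPM (18.8 to 25.6) and 16.3 CPM (13.9 to 19.0). The ratio was 11.3 (5.60 to 26.6) between *Enl*-T1 and *Enl*-WT. The 5 coding genes that its span covers had ratios of 2.91 to 4.83, with *Hoxa3* highest and *Hoxa4* lowest. Its UMI ratio to all 7 coding neighbours, the flanking *Hoxa2* and *Hoxa9* included, was higher in the *Enl*-T1 library, by 2.34 to 5.36 times, with every interval above 1. The excess over the neighbours was not seen in the stroma, where the change of ratio held 1 for 6 of the 7 and was 2.06 (1.13 to 3.82) for *Hoxa2*. With 8 UMIs in the *Enl*-WT library the size of the NP1-like ratio is poorly fixed.

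*Hotairm1* and *Hoxaas2*, on either side of *Hoxa2*, were low in progenitors. *Hotairm1* was at 2.19 CPM (1.00 to 4.16), 7.16 CPM (5.39 to 9.31) and 7.33 CPM (5.76 to 9.18) in NP1-like cells. Its *Enl*-T1 to *Enl*-WT ratio was 3.27 (1.60 to 7.52), beside 2.10 (1.34 to 3.39) for *Hoxa2*. *Hoxaas2* was at 2.68 CPM (1.34 to 4.79), 7.03 CPM (5.28 to 9.17) and 2.25 CPM (1.42 to 3.37), with a ratio of 2.62 (1.36 to 5.57) between *Enl*-T1 and *Enl*-WT. Under other settings the ratio ran from 1.60 to 10.6 for *Hotairm1*, with the interval above 1 in 7 of 11, and from 1.18 to 7.35 for *Hoxaas2*, with the interval above 1 in 6 of 12. The overlapping *Hoxa3* had 4.83 (3.79 to 6.22). The change of the UMI ratio held 1 in this contrast for *Hotairm1* to *Hoxa2* and for *Hoxaas2* to *Hoxa2*, *Hoxa3* and *Hoxa4*. Both averaged under 5 CPM over the 2 libraries and so were not counted among the genes compared with the background.

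*Hoxb3os*, read antisense to *Hoxb2* and *Hoxb3*, was close to level between the untreated libraries. In NP1-like cells it was at 14.4 CPM (10.9 to 18.5) in the *Enl*-WT and 14.6 CPM (12.0 to 17.5) in the *Enl*-T1 library, a ratio of 1.01 (0.73 to 1.42). The overlapping *Hoxb3* and *Hoxb2* had ratios of 1.21 (1.09 to 1.35) and 1.44 (1.27 to 1.65). In the *Enl*-T1 TDI-11055 library it stood at 26.4 CPM (23.3 to 29.7), 1.81 times (1.45 to 2.28) the *Enl*-T1 level. *Hoxb2* was 1.99 times (1.84 to 2.15) higher there, from 112 to 222 CPM, and *Hoxb1*, the next gene, 7.46 times (5.69 to 9.94), from 7.5 to 56.3 CPM. *Hoxb3* and *Hoxb4*, on the other side, had ratios of 0.955 (0.882 to 1.03) and 0.937 (0.869 to 1.01). The UMI ratio of *Hoxb3os* to *Hoxb2* was 13.1 and 11.9 per 100 (change 0.91, 0.72 to 1.16), while its ratio to *Hoxb3* was 1.90 times higher (1.49 to 2.42). In the stroma *Hoxb2* and *Hoxb3os* had *Enl*-T1 TDI-11055 to *Enl*-T1 ratios of 2.17 (1.83 to 2.56) and 1.68 (1.10 to 2.52). Of its exonic bases 76.2% lie opposite coding exons, 2250 bases in *Hoxb3* and 953 in *Hoxb2*. Its count is of the order of the *Tsix* share. Whether reads of either coding gene entered its count was not tested, and the strand setting is not given.

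**Figure D2:**
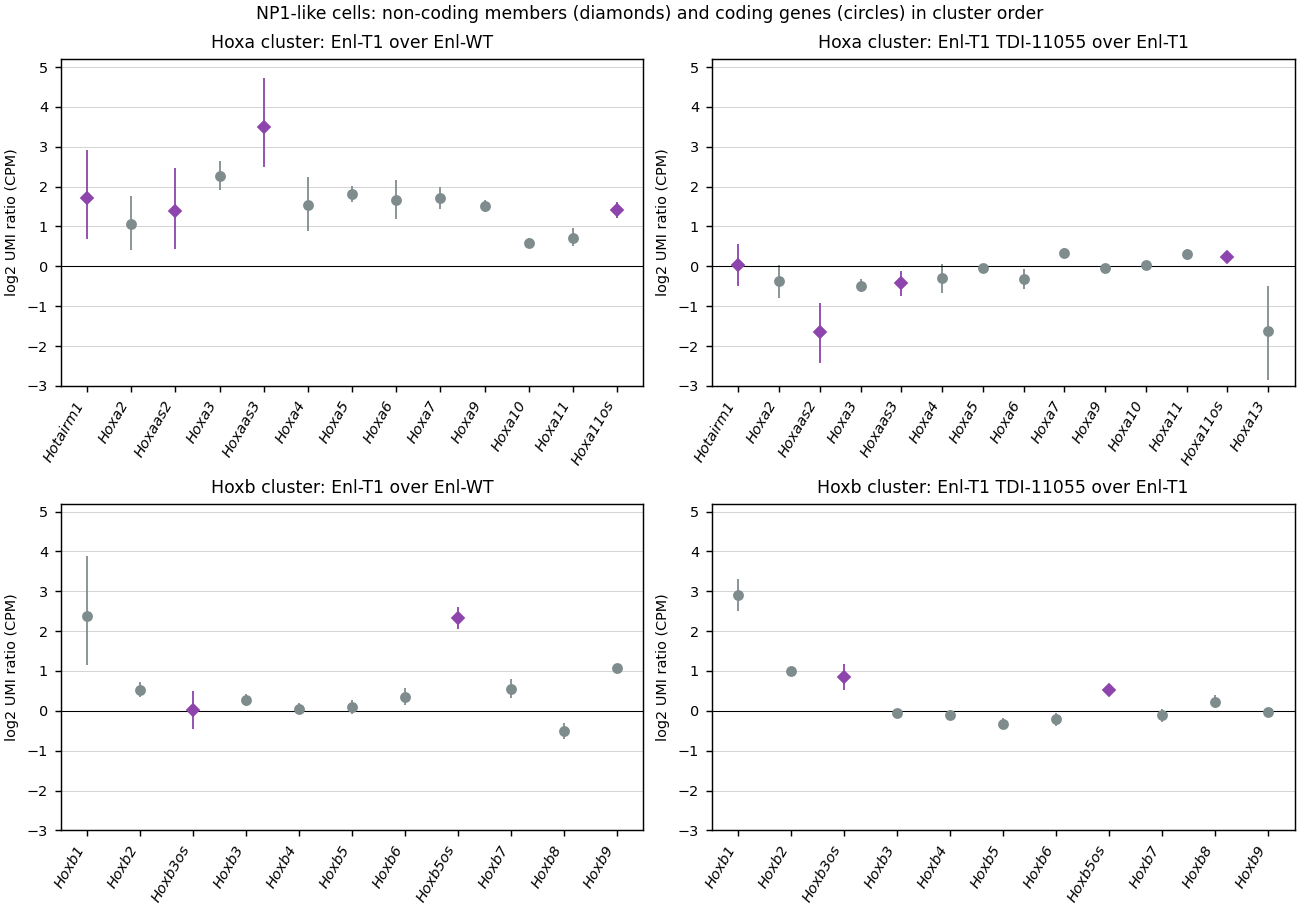
log2 ratio of CPM in NP1-like cells for non-coding members (purple diamonds) and coding genes (grey circles) in the order of their gene spans, with exact 95% intervals, for genes with at least 3 UMIs in both libraries. In the *Hoxb* cluster, *Hoxb5os* stood at a ratio of 5.01 between *Enl*-T1 and *Enl*-WT while *Hoxb5* was at 1.07, and under TDI-11055 the ratios of *Hoxb1*, *Hoxb2* and *Hoxb3os* were 7.46, 1.99 and 1.81.

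Across all genes with at least 5 CPM on average over *Enl*-WT and *Enl*-T1 NP1-like cells, 273 of 9923 were at least 2-fold higher in *Enl*-T1, which is 2.75%. The members past that fold were 3 of the 4 that met the level (*Hoxaas3*, *Hoxa11os* and *Hoxb5os*), and *Hoxb3os* was not. The coding *Hox* genes past it were 15 of 31, and the other non-coding genes of the clusters 0 of 3. Among all non-coding genes 38 of 283 were past it, or 13.4%. The median log2 ratio was −0.34 over all genes, −0.01 over non-coding genes, 0.84 over coding *Hox* genes and 1.87 over the 4 members. *Hoxaas3*, at 1.95 CPM in the *Enl*-WT and 22.0 CPM in the *Enl*-T1 library, met the level only through the library where it was high. It is among the 3 members past the fold and in the members' median. By cluster, the median was 1.54 over 9 *Hoxa*, 0.32 over 8 *Hoxb*, 0.72 over 7 *Hoxc* and 1.05 over 7 *Hoxd* coding genes. The log2 ratio of *Hoxb5os* was 2.32, beside that *Hoxb* median of 0.32.

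The second contrast shares the *Enl*-T1 library with the first, so its values are set beside the first and not read as independent of them. Of 9641 genes at the same level in NP1-like cells, 223 were at least 2-fold lower in the *Enl*-T1 TDI-11055 than in the *Enl*-T1 library, or 2.31%. None of the 5 members that met the level was among them, and 8 of 32 coding *Hox* genes were. The coding genes were split by cluster. The interval lay below 1 for all 7 *Hoxc* and all 7 *Hoxd* genes that met the level, with ratios of 0.38 to 0.53 and 0.37 to 0.60. In *Hoxa* it lay below 1 for 2 of 9 genes and above 1 for 2, and in *Hoxb* below 1 for 2 of 9 and above 1 for 3. All 6 non-coding members lie in the *Hoxa* and *Hoxb* clusters. Of the 3 other non-coding genes of the clusters that met the level, 2 were past 2-fold lower, both in *Hoxd*. They were *Hoxd3os1* at 33.8 and 16.1 CPM (ratio 0.48, 0.39 to 0.58) and *Gm14396* at 14.4 and 3.2 CPM (ratio 0.22, 0.15 to 0.33). Among all non-coding genes 19 of 254 were past it, or 7.48%.

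Member by member, the *Enl*-T1 TDI-11055 to *Enl*-T1 ratio in NP1-like cells was 1.44 (1.35 to 1.55) for *Hoxb5os*, 1.17 (1.09 to 1.25) for *Hoxa11os* and 1.02 (0.71 to 1.48) for *Hotairm1*. For *Hoxa11os* the interval lay above 1 in 8 of 12 other settings, and the ratio was 1.02 in thinned cells. Over the whole nephron the *Hoxa11os* ratio was 0.98, and its interval lay below 1 in NP2-like and unnamed nephron cells. *Hoxaas3* was at 0.74 (0.60 to 0.92), with the interval below 1 in 4 of 12 other settings. *Hoxaas2* was the member lowest against the untreated *Enl*-T1 library, at 0.32 (0.19 to 0.53). It did not meet the level of 5 CPM. Its level in the *Enl*-T1 TDI-11055 library, 2.25 CPM, had an interval overlapping that of the *Enl*-WT library, while *Hoxa3*, which it overlaps, was at 0.71 (0.64 to 0.80). Its UMI ratio to *Hoxa3* was 14.9, 8.1 and 3.6 per 100 in the 3 libraries, and the change between the last 2 was 0.45 (0.26 to 0.75). The change against *Hoxa2* and *Hoxa4* was 0.41 and 0.40, with intervals below 1. For *Hoxb5os*, the UMI ratio to all 4 neighbours was 1.54 to 1.81 times higher with TDI-11055, and *Hoxb5* itself was at 0.80 (0.72 to 0.88). The NP1-like clusters taken alone gave *Hoxb5os* ratios between 1.24 and 2.02.

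**Figure D3:**
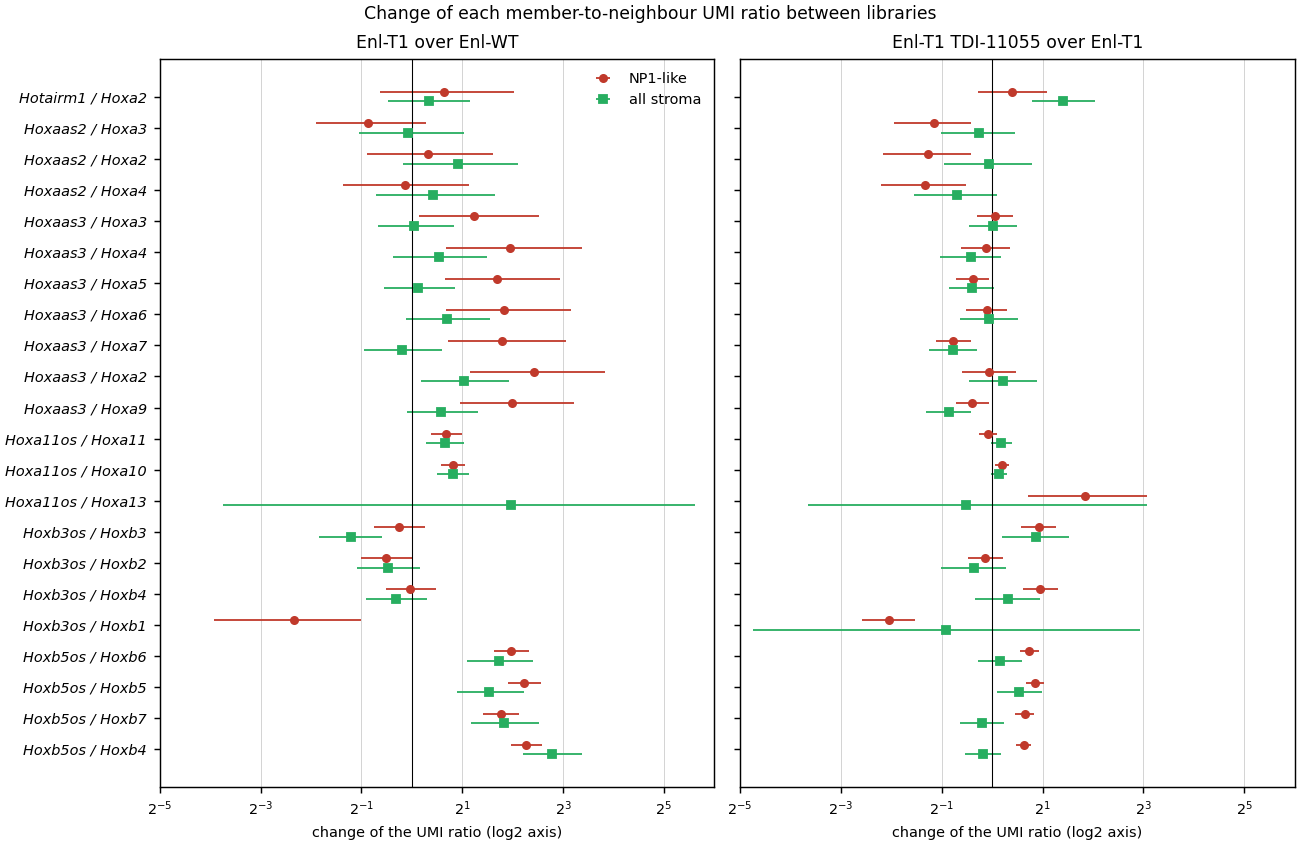
Change between libraries of the UMI ratio of each member to each coding neighbour (log2 axis, bars for exact 95% conditional intervals), in NP1-like cells (red circles) and in all stroma (green squares), for 22 pairs. *Hoxb5os* lay above 1 against all 4 neighbours between *Enl*-T1 and *Enl*-WT in both, at 3.40 to 4.83 in NP1-like cells and 2.91 to 6.85 in stroma, whereas *Hoxaas2* lay below 1 against its 3 neighbours under TDI-11055 in NP1-like cells and held 1 in stroma, a difference that was not tested.

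In the stroma, which *Wt1*-driven Cre also reaches, 302 of 10557 genes were at least 2-fold higher in the *Enl*-T1 library than in wild type (2.86%). The members past the fold were 5 of 6, and the coding *Hox* genes 16 of 31. *Hoxaas2*, at 2.68 CPM in the *Enl*-WT and 8.28 CPM in the *Enl*-T1 library, met the level only through the library where it was high. *Hoxb5os* was at 8.05 CPM (5.54 to 11.3), 38.6 CPM (35.0 to 42.4) and 46.1 CPM (39.3 to 53.8), a first ratio of 4.80 (3.36 to 7.06), which was 12.3 in female cells. *Hoxa11os* was at 27.3 CPM (22.5 to 32.9), 119 CPM (112 to 125) and 176 CPM (163 to 191), a first ratio of 4.34 (3.58 to 5.32). *Hoxa11* had 2.74 (2.33 to 3.25). By class *Hoxa11os* went from 66.9 to 82.4 CPM in medullary stroma-like cells (ratio 1.23, interval holding 1) and from 27.1 to 137 CPM in Foxd1 stroma-like cells. The *Enl*-WT and *Enl*-T1 stroma held other shares of classes, with 46 and 229 ureteric stroma-like and 183 and 93 renin/mesangial-like cells. The part of this in the stroma ratios was not tested. *Hoxaas3* and *Hoxaas2* had first ratios of 3.37 (2.17 to 5.50) and 3.09 (1.65 to 6.40), and *Hotairm1* 2.07 (1.39 to 3.16), which was 1.01 in male cells. *Hoxb3os* was at 11.5, 6.48 and 10.9 CPM with a first ratio of 0.57 (0.39 to 0.83), and the interval lay below 1 in 3 of 8 other settings, with 0.84 in male cells.

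Between treated and untreated *Enl*-T1 stroma, 433 of 10219 genes were at least 2-fold lower (4.24%), and none of the 6 members was among them. *Hotairm1* stood out in the other direction. It was at 7.32 CPM (4.94 to 10.4), 15.1 CPM (12.9 to 17.6) and 33.5 CPM (27.7 to 40.2) in the 3 libraries, and the second ratio was 2.22 (1.74 to 2.82). Its neighbour *Hoxa2* had a second ratio of 0.835 (0.582 to 1.17), and its UMI ratio to *Hoxa2* was 2.65 times higher (1.73 to 4.11). *Gm15050*, another non-coding gene of the *Hoxa* cluster, within the span of *Hoxa3*, was at 3.96 and 21.5 CPM (ratio 5.43, 3.69 to 8.07). In Foxd1 stroma-like cells alone *Hotairm1* was at 7.16, 24.4 and 40.0 CPM, and in distal tubule/loop of Henle-like cells at 7.84, 11.8 and 33.3 CPM. *Hoxa11os* had a second ratio of 1.48 (1.35 to 1.64) in the stroma, beside 1.31 (1.18 to 1.45) for *Hoxa11*. The stroma of the *Enl*-T1 TDI-11055 library held 271 cells, against 1397 in the *Enl*-T1 library, and stromal classes other than Foxd1 stroma-like and unnamed cells each held under 50, so its total rests on other shares of those classes.

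**Figure D4:**
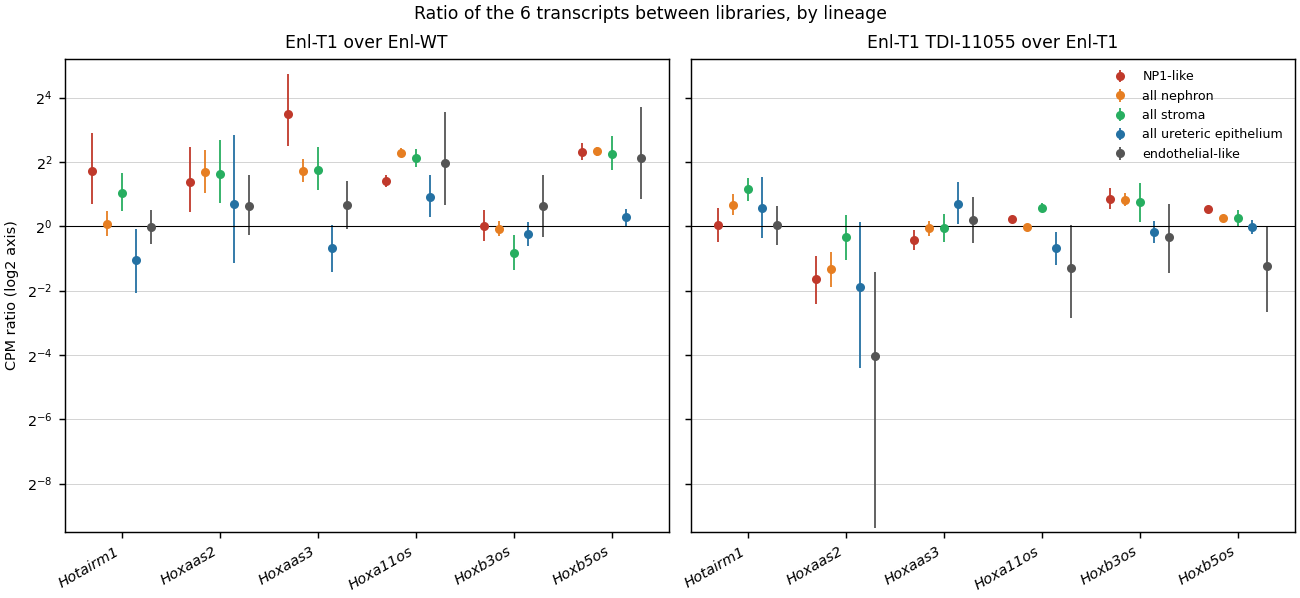
Ratio of CPM between libraries (log2 axis, exact 95% intervals) for the 6 transcripts in NP1-like cells, the nephron, stroma and ureteric epithelium lineages and endothelial-like cells. Between *Enl*-T1 and *Enl*-WT, *Hoxb5os* stood at 5.05 in the nephron, 4.80 in the stroma and 4.40 in endothelial-like cells but at 1.21 in the ureteric epithelium. *Hotairm1* stood at 2.07 in the stroma and 0.98 in endothelial-like cells.

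The ureteric epithelium does not descend from *Wt1*-expressing cells. In the ureteric epithelium *Hoxb5os* was at 16.5 CPM (14.2 to 19.1), 20.04 CPM (17.9 to 22.4) and 19.7 CPM (17.7 to 21.8), and its first ratio was 1.21 (1.01 to 1.46). *Hoxb4*, *Hoxb5*, *Hoxb6* and *Hoxb7* had first ratios of 0.555 to 0.878 there, and all 8 *Hoxb* coding genes with at least 5 CPM had intervals below 1. Ribosomal protein genes took 14.6%, 22.5% and 24.4% of the ureteric UMIs, and the part of this in these ratios was not tested. With median-of-ratios scaling of the totals the first ratio of *Hoxb5os* was 1.51. *Hoxa11os* was close to absent, at 2.59 CPM (1.74 to 3.72), 4.91 CPM (3.87 to 6.15) and 3.05 CPM (2.32 to 3.95). Unnamed ureteric cells held 20 of 29, 55 of 76 and 36 of 58 of its ureteric UMIs. The part of free RNA in these low values was not tested. In endothelial-like cells *Hotairm1* was at 21.8 CPM (16.7 to 27.9), 21.4 CPM (16.6 to 27.1) and 21.8 CPM (15.51 to 29.81). Its ratios were 0.98 (0.69 to 1.41) and 1.02 (0.67 to 1.53). *Hoxa11os* and *Hoxb5os* had 6 UMIs each in *Enl*-WT endothelial-like cells, and 26 and 29 in *Enl*-T1. Their first ratios there were 3.94 and 4.40, both with intervals above 1, which held in 4 of 6 and 4 of 5 other settings. By the paper, *Wt1*-driven Cre is expressed only in nephron and stroma. The part of free RNA in these counts was not tested.

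Counted per cell, after each cell was thinned to 2000 UMIs, *Hoxa11os* was found in 12.9% of *Enl*-WT NP1-like cells (10.54 to 15.63, n = 704), 30.9% of *Enl*-T1 cells (27.2 to 34.8, n = 595) and 32.3% of *Enl*-T1 TDI-11055 cells (28.5 to 36.3, n = 576). *Hoxb5os* was found in 5.82% (4.21 to 7.82), 21.0% (17.8 to 24.5) and 32.3% (28.5 to 36.3). In endothelial-like cells, taken as background, the shares were at most 0.862% for *Hoxa11os* and 1.17% for *Hoxb5os*. At full depth, which differs between the libraries, the NP1-like shares were 29.1%, 84.9% and 86.0% for *Hoxa11os* and 15.1%, 66.7% and 82.3% for *Hoxb5os*. *Hoxaas3* was found in 0.426%, 3.36% and 3.47% of thinned NP1-like cells, and of 1.04%, 1.95% and 3.45% of endothelial-like cells, which also count this gene and are no background for it.

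Over 43 class-by-library sums of at least 50 cells, the pattern of *Hoxa11os* was most like that of *Hoxa11*, with a Pearson r of 0.97 of log2(CPM + 1) among 11006 genes, followed by *Hoxa6* and *Hoxa10*. *Hoxaas3* was most like *Hoxa7* (0.84), *Hoxa4* (0.82) and *Hotairm1* (0.78), and *Hotairm1* like *Prnp* (0.84), *Hoxa4* and *Hoxa7* (both 0.81). *Hoxb5os* was most like 3 genes outside the clusters, *Smim4* (0.79), *Fam136a* and *Arl3* (both 0.77), and *Hoxb5* came 23rd at 0.71. *Hoxb3os* was most like *Car4* (0.80), *Car14* (0.77) and *Clec18a* (0.76), genes that encode 2 carbonic anhydrases and a lectin, with *Hoxb2* next at 0.75. *Hoxaas2* had *Eif1b* (0.76), *Slc24a5* (0.75) and *G630016G05Rik* (0.73). The points share libraries and depth, so these values describe likeness only.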

How the data were processed

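Kidneys of E15.5 embryos were measured in 3 libraries, 1 per group. Per the labels, the authors made the deposited UMI counts per gene and barcode with Cell Ranger 6.1.2 on mm10; its strand and intron settings are not given in the sources used here. Barcodes with 1000 to 6000 genes and at most 10% mitochondrial UMIs were kept. The libraries were integrated with Seurat 5.3.0 without *Hox*-cluster, mitochondrial, ribosomal, haemoglobin and sex-linked genes (908 genes), clustered (30 components, resolution 0.5) and reclustered by lineage (20 components, resolution 0.8). Clusters were named from marker lists, by a rule set after the clusters were seen, and doublets stayed in, with their removal by Scrublet among the alternatives (123 *Enl*-WT and 41 *Enl*-T1 cells by its own threshold, and in the treated library, where that marked 2, the 142 cells of highest score). UMIs were summed per class, with exact Poisson, binomial and conditional intervals that cover counting error only. No test was run, since cells are not replicates. Genes were compared with the background at 5 CPM and 2-fold. All 6 members were named, with each coding *Hox* gene that the span overlaps or that is nearest on either side, except 1 that is not reported here. The members, lists and rules were chosen with earlier results of these data known. Annotation came from GENCODE M21, in which 32235 of 32285 gene IDs were found. Intervals were checked on simulated Poisson counts, which hold no spread between cells or embryos, so the check covers counting error only.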

Additional observations from a re-analysis of the deposited data

Results flagged for a closer look

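For 2 transcripts the ratio lay on opposite sides of 1 in 2 lineages under the same contrast, and the difference between the lineages was not tested. Between *Enl*-T1 and *Enl*-WT, *Hotairm1* had a ratio of 2.07 (1.39 to 3.16) in the stroma and 0.48 (0.24 to 0.95) in the ureteric epithelium, the latter from 16 and 24 UMIs. In male cells the stroma ratio was 1.01, and the ureteric interval lay below 1 in 3 of 7 other settings. Between treated and untreated *Enl*-T1, *Hoxa11os* had 1.48 (1.35 to 1.64) in the stroma and 0.62 (0.43 to 0.89) in the ureteric epithelium, the latter from 58 and 76 UMIs at 3.05 and 4.91 CPM. That ureteric value was 2.13 in male cells, and its interval lay below 1 in 4 of 8 other settings. Of its UMIs, 36 of 58 and 55 of 76 lay in unnamed ureteric cells, the only ureteric class whose interval lay below 1. Groups of 1 library cannot be searched for outlying samples.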

How the results depend on the processing

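With 1 library per group, no library could be left out. No paired analysis was possible because the groups share only 1 replicate number and no result comes from a test. The ratios of single transcripts were recomputed under other cell filters, scalings, sexes, clusters and a depth of 2000 UMIs per cell. 405 recomputed ratios moved by less than the counting interval, 92 moved beyond it and 4 reversed. The reversed ones lay in the ureteric epithelium. Between *Enl*-T1 and *Enl*-WT, *Hoxa11os* was at 0.79 with at most 5% mitochondrial UMIs and at 0.99 in male cells, and *Hoxb5os* at 0.94 in thinned cells. Between treated and untreated *Enl*-T1, *Hoxa11os* was at 2.13 in male cells. Against neighbours in NP1-like cells with TDI-11055, thinning gave a change of 1.12 for *Hoxaas3* to *Hoxa5*, 1.01 for *Hoxaas3* to *Hoxa9* and 0.998 for *Hoxa11os* to *Hoxa10*. In NP1-like cells the *Enl*-T1 to *Enl*-WT ratio ranged from 3.19 to 7.79 for *Hoxb5os*, 2.21 to 3.31 for *Hoxa11os*, 1.73 to 20.2 for *Hoxaas3*, 1.60 to 10.6 for *Hotairm1*, 1.18 to 7.35 for *Hoxaas2* and 0.74 to 1.49 for *Hoxb3os*. The causes were not tested.

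Totals without mitochondrial, ribosomal and haemoglobin genes, a level of 1 CPM and no level each put 5 members past 2-fold higher in *Enl*-T1 NP1-like cells, and 1 past 2-fold lower with TDI-11055. In female stroma 3 members were past 2-fold higher. For all genes, the count of 273 higher in *Enl*-T1 NP1-like cells became 463 with median-of-ratios scaling, 526 with those reduced totals, 662 at 1 CPM, 2987 with no level and 601 at 1.5-fold. The 223 lower with TDI-11055 became 363 with reduced totals, 383 in male cells, 648 at 1 CPM, 2858 with no level and 811 at 1.5-fold. In the stroma, the 302 higher became 522 with median-of-ratios scaling, 509 with reduced totals, 472 in female and 462 in male cells, 661 at 1 CPM, 3168 with no level and 718 at 1.5-fold. The 433 lower became 677 in male cells, 1080 at 1 CPM, 4745 with no level and 1217 at 1.5-fold. For 30 combinations no value could be had, for under 50 cells or 0 UMIs.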
